A study of Danio rerio with 2 samples.

Results

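The cells described here are called lateral floor plate progenitors of the zebrafish embryo, a name that rests on the genes that chose them. They were taken at 28 h post fertilization (hpf) and are 495 of the 7664 cells kept from the 28 hpf library. That library held 10124 cell barcodes, and the series used here held 18029. Members were chosen by their own counts of unique molecular identifiers (UMIs, each of which marks 1 captured RNA molecule). A cell had at least 1000 genes and under 5% of its UMIs from hemoglobin genes, at least 3 UMIs of *nkx2.2b* and *nkx2.9* together, at most 2 of *shha* and *shhb* together, and at most 5 of *elavl3*. The 690 comparison cells of the same library had at least 5 UMIs of *olig2*, at most 5 of *elavl3*, and no UMI of *nkx2.2b* or *nkx2.9*.

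Both libraries came from zebrafish carrying the transgene *Tg(olig2:dsred)*, in which *olig2* regulatory DNA drives a red fluorescent protein. Embryos were pooled, heads were removed, trunks were dissociated with trypsin, and red cells were sorted and captured by the 10x Genomics 3′ V3 chemistry, with 1 library at 28 hpf and 1 at 60 hpf. All cells described carry this transgene and passed this sort. The red protein outlasts the activity of its gene, so the sort also admits cells that no longer hold *olig2* RNA, and how many red cells each domain gave to the sort cannot be told apart from its size in the embryo.

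The floor plate is the ventral midline of the neural tube, and its medial cells secrete the ligand Sonic hedgehog. The cells on either side, the lateral floor plate or p3 domain, answer the strongest signal by making the transcription factors Nkx2.2 and Nkx2.9, which repress *olig2* and *pax6*. The next domain, pMN, makes Olig2 and yields motor neurons and then oligodendrocyte precursors. In zebrafish the lateral floor plate gives rise to V3 interneurons and to some of the Kolmer-Agduhr (KA) neurons, which touch the cerebrospinal fluid. Lateral floor plate progenitors carry cilia into the central canal.

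The 28 hpf library held 95108584 UMIs and the 60 hpf library 70432500. With 1 library per stage no difference was tested, and no p-value is given. A level is the sum of a gene's UMIs over the cells of a group per 10000 UMIs of that group, with its exact Poisson 95% interval. A log2 ratio compares the levels of 2 groups, with the exact interval conditional on the summed UMIs. A share of cells has its exact binomial interval. All these intervals cover counting error alone, not differences between embryos or libraries. Median depth was 6839 UMIs and 1965 genes in lateral floor plate cells, against 6033 UMIs and 1721 genes in comparison cells. Across both libraries 24 barcodes were shared, 1 of them a lateral floor plate barcode at 28 hpf, and no barcode met the rule in both.

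The genes of the rule describe the choice of cells. *nkx2.2b* (ENSDARG00000101549) had a median of 3 UMIs and at most 17 per lateral floor plate cell, with a UMI in 468 of the 495. *nkx2.9* (ENSDARG00000020332) had a median of 2 UMIs and at most 16, in 350 cells. The rule set no limit on *olig2* (ENSDARG00000040946) in these cells, and 308 of them (62.2%) held at least 1 UMI, with a highest count of 100. Its level was 9.73 in lateral floor plate cells and 44.1 in comparison cells, a difference that the choice of the comparison cells fixes.

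Of the 4 genes named as marking these cells, *slc1a3a* and *pth1a* were not part of the rule. *slc1a3a* (ENSDARG00000104431), which encodes a glutamate transporter of glia, had a median of 7 UMIs per lateral floor plate cell, with quartiles of 3 and 13 and a highest count of 55, against a median of 2, quartiles of 1 and 4 and a highest count of 29 in comparison cells. *pth1a* (ENSDARG00000093738), which encodes a parathyroid hormone, had a median of 28 UMIs (quartiles 9 and 55, highest 204) in lateral floor plate cells, against 3 (quartiles 0 and 14, highest 85) in comparison cells. Both genes had higher quartiles in lateral floor plate cells, while the ranges of the groups overlapped. Their levels were 11.7 (11.4 to 12.1) against 3.86 (3.68 to 4.04) for *slc1a3a*, a log2 ratio of 1.604 (1.525 to 1.685), and 46.9 (46.2 to 47.6) against 15.0 (14.7 to 15.4) for *pth1a*, a log2 ratio of 1.64.

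By level, neither gene set these cells apart from *shha*-rich cells. In the 155 cells with at least 3 UMIs of *shha* and *shhb* and at most 5 of *elavl3*, called *shha*/*shhb* cells here, *slc1a3a* stood at 10.98 and *pth1a* at 52.8, log2 ratios of 0.09 (0.01 to 0.18) and -0.17 (-0.21 to -0.13) for lateral floor plate cells over them. Of these cells, 82 had 3 or more UMIs of *nkx2.2b* and *nkx2.9*, so the border drawn by the rule runs through cells that hold both kinds of transcript. With each cell thinned to 2000 UMIs, *slc1a3a* was found in 78.5% (74.7 to 82.1) of lateral floor plate cells, 50.9% (47.1 to 54.7) of comparison cells and 1.03% of the hemoglobin-rich cells, whose UMIs of neural genes are taken as background. *pth1a* was found in 88.5% (85.3 to 91.1), 59.3% (55.6 to 63.0) and 4.45%. Unthinned, the shares were 92.5%, 77.8% and 10.7% for *slc1a3a* and 92.1%, 73.9% and 28.5% for *pth1a*, with median depths of 6839, 6033 and 32686 UMIs. After thinning, *shha*/*shhb* cells stood at 65.2% (57.1 to 72.6) for *slc1a3a* and 87.1% (80.8 to 91.9) for *pth1a*. Muscle cells, another background, had 20 or more UMIs of *actc1b*, *mylpfa* and *tnnt3b* together. In 40 such thinned cells the shares were 7.5% (1.57 to 20.4) and 22.5% (10.8 to 38.5). At least 50% of the UMIs of hemoglobin-rich cells were hemoglobin, so thinning left them fewer other UMIs.

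**Figure D1:**
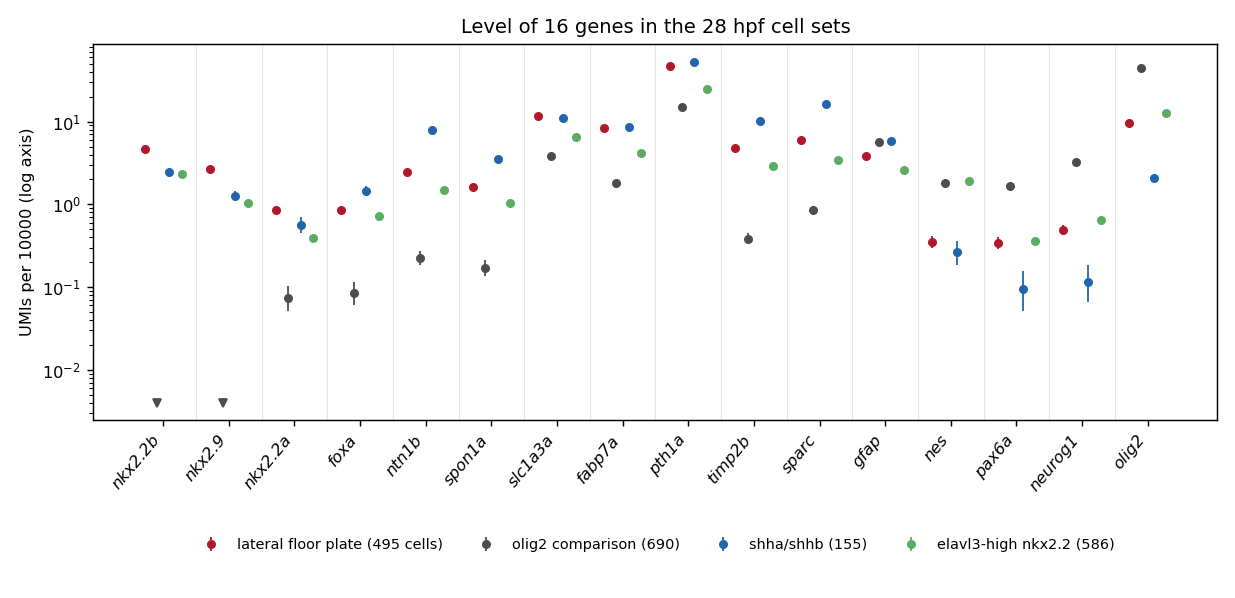
Levels of named genes in UMIs per 10000 (log axis) in lateral floor plate cells, *olig2* comparison cells, *shha*/*shhb* cells and *elavl3*-high cells with *nkx2.2b* or *nkx2.9* at 28 hpf. Points are levels with exact Poisson 95% intervals, and triangles at the bottom mark levels of 0, which the rule fixed for *nkx2.2b* and *nkx2.9* in comparison cells; *slc1a3a* stands at 11.7, 3.86, 10.98 and 6.43.

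Across the genes, 11811 had at least 20 UMIs over the 2 groups and at least 5 expected in the smaller. Of these, 692 (5.86%) were at least 2-fold higher in lateral floor plate cells than in comparison cells and 400 (3.39%) at least 2-fold lower, counted with a pseudocount of 1 UMI. The median log2 ratio of all these genes was 0.05. The counts of list members below are read beside these shares, and the medians of lists and of all genes include the pseudocount.

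Of 15 patterning factors tested outside the rule, 4 were at least 2-fold higher in lateral floor plate cells and 5 at least 2-fold lower, with a median log2 ratio of -0.70. *nkx2.2a* (ENSDARG00000053298), a paralog of *nkx2.2b*, stood at 0.847 (0.757 to 0.945) against 0.0741 (0.0513 to 0.104), a log2 ratio of 3.52 (3.002 to 4.07), with a UMI in 187 of 495 cells against 26 of 690. The forkhead factor *foxa* stood at 0.866 against 0.0850 (log2 ratio 3.35) and *foxa2*, which specifies the floor plate, at 0.433 against 0.0240 (log2 ratio 4.17). The fourth, *pax3a*, a dorsal factor, had 19 UMIs in 2 lateral floor plate cells and 8 UMIs in 6 comparison cells.

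On the lower side stood the factors of more dorsal progenitors. *pax6a* (ENSDARG00000103379), which is repressed by Nkx2.2, had a level of 0.341 against 1.69 (log2 ratio -2.31) and a UMI in 74 of 495 cells against 344 of 690. Its copy *pax6b* gave a log2 ratio of -2.29, and *irx3b*, *irx5b* and *olig4* lay between -1.50 and -1.56. *nkx6.1*, a factor that p3 and pMN both use, did not differ by 2-fold, at 0.876 against 0.9897 (log2 ratio -0.18, -0.38 to 0.03).

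The gene with the highest ratio by the naming rule was *phox2bb* (ENSDARG00000091029), a factor of hindbrain visceral motor progenitors, at 0.577 against 0.0131 (log2 ratio 5.46, 4.32 to 6.93). It came from 37 of the 495 cells. Next were *stm*, an otolith matrix gene, with a log2 ratio of 4.55, the adrenergic receptor gene *adrb3a* at 4.24, *ccn1l2* of the CCN matricellular family at 3.999, *si:ch1073-70f20.1* at 3.75, and the protease inhibitor gene *timp2b* at 3.64. Of these, *adrb3a* was found in 163 cells, *ccn1l2* in 215 and *timp2b* in 249, against 11, 18 and 98 comparison cells, while *si:ch1073-70f20.1* was found in 58 against 68. After thinning to 2000 UMIs *adrb3a* was found in 17.0% of lateral floor plate cells, 0.583% of comparison cells and 7.02% of hemoglobin-rich cells. The same shares were 22.1%, 1.02% and 0% (0 of 584 cells, interval up to 0.630%) for *ccn1l2* and 28.1%, 4.81% and 0.514% for *timp2b*. Unthinned, the hemoglobin-rich share was 66.4% for *adrb3a*, 0.848% for *ccn1l2* and 4.75% for *timp2b*. For *adrb3a* it exceeded the 1.59% of comparison cells, so it was not read as background for this gene. In the 40 thinned muscle cells defined above, *adrb3a* and *ccn1l2* were not found. *timp2b* was found in 5% (0.611 to 16.9) of them, near its share in comparison cells. Whether hemoglobin-rich cells transcribe *adrb3a* was not tested. In thinned *shha*/*shhb* cells the shares were 63.9% for *ccn1l2*, 52.9% for *timp2b* and 15.5% for *adrb3a*. For *stm* the thinned share was 11.6% there and 10.7% in lateral floor plate cells. These 4 genes were thus not particular to lateral floor plate cells.

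The midline list holds genes of the floor plate matrix and of axon guidance. Of 14 midline genes tested, 8 were at least 2-fold higher and 1 lower, with a median log2 ratio of 1.48. *ntn1b* (ENSDARG00000022531), which encodes a netrin that draws commissural axons to the midline, stood at 2.45 (2.30 to 2.62) against 0.227 (0.185 to 0.275), a log2 ratio of 3.44 (3.14 to 3.74). It had a UMI in 335 of 495 lateral floor plate cells and in 62 of 690 comparison cells. After thinning to 2000 UMIs it was found in 35.8% (31.6 to 40.2) of lateral floor plate cells, 3.35% (2.14 to 4.99) of comparison cells and 0.514% of hemoglobin-rich cells. Unthinned, the hemoglobin-rich share was 3.90%, at the greater depth of those cells.

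*spon1a* and *spon1b*, which encode spondins of the floor plate matrix, gave log2 ratios of 3.26 (2.92 to 3.62) and 2.44 (2.08 to 2.81). *slit2*, a repellent of crossing axons, gave 2.29, and *sulf1*, an enzyme that trims heparan sulfate, 1.596. *slit3* was the lower one, at 0.192 against 0.484 (log2 ratio -1.34). Among the 690 comparison cells, 2 held more than 2 UMIs of *shha* and *shhb*, and these had 215 of the group's 544 UMIs of *col2a1a* and 52 of its 65 of *ccn2a*. Without those 2 cells, the log2 ratio of *col2a1a* was 1.57 in place of 0.85 and that of *ccn2a* 3.69 in place of 1.37. In that setting 10 midline genes were at least 2-fold higher, with a median of 2.14. Those 2 cells were left out for their UMIs of *shha* and *shhb* and held many UMIs of midline genes. The higher count and median thus follow from that choice. The number tested and the share of all genes called without those cells are not given here, so the count cannot be read as a rise.

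Genes of Hedgehog signalling stood on both sides as well, with *shha* and *shhb* held low by the rule. Of 16 other pathway genes tested, 1 was at least 2-fold higher and 5 at least 2-fold lower, with a median log2 ratio of -0.15. The direct target *gli1* stood at 0.438 against 0.497 (log2 ratio -0.18, -0.48 to 0.11), short of 2-fold. *ptch1* and *smo*, the receptor and its effector, gave -0.13 and 0.05.

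The lower pathway genes were the transcription factors *gli2a* and *gli3*, the co-receptors *gas1a* and *gas1b*, and *scube2*, whose product helps release the ligand. *gli2a* stood at 0.740 against 1.74 (log2 ratio -1.23) and *gli3* at 0.351 against 0.774 (-1.14). *gas1b*, which is known to be turned off by the signal, stood at 0.212 against 0.828 (-1.96). The co-receptor gene *cdon* was the higher one, at 0.396 against 0.192 (log2 ratio 1.05, 0.66 to 1.44).

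Genes of radial glia stood on both sides. Of 16 tested, 4 were at least 2-fold higher, *fabp7a*, *slc1a3a*, *slc1a3b* and the sodium pump gene *atp1a1b*, and 1 was lower, with a median log2 ratio of 0.43. *fabp7a* (ENSDARG00000007697), a fatty acid binding protein of radial glia, stood at 8.47 (8.18 to 8.76) against 1.79 (1.67 to 1.92), a log2 ratio of 2.24 (2.13 to 2.35), and after thinning it was found in 55.7% of cells against 19.4%. *gfap*, the intermediate filament most used to mark these glia, was lower by less than 2-fold, at 3.85 against 5.60 (log2 ratio -0.54, -0.63 to -0.45). The filament gene *vim* gave -0.46, and *nes*, the nestin gene, stood at 0.351 against 1.82 (-2.37, -2.65 to -2.11).

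Of the SoxB1 factors of neural progenitors, *sox1b* was the 1 of 6 past 2-fold, at 0.970 against 0.325 (log2 ratio 1.58), while *sox2* gave -0.58 and *sox3* -0.72. The list of proneural and neuronal genes stood lower. Of 21 tested, 9 were at least 2-fold lower and 1 higher, with a median log2 ratio of -0.96. *neurog1* (ENSDARG00000056130), a proneural factor, stood at 0.493 (0.425 to 0.569) against 3.27 (3.10 to 3.44), a log2 ratio of -2.73 (-2.95 to -2.51), and after thinning was found in 5.06% of cells against 31.6%. The factors that follow it, *neurod4*, *neurod1* and *ebf2*, gave -2.59, -2.33 and -2.56, and *ascl1a* gave -2.16. The exception was *ascl1b*, at 0.181 against 0.0741 (log2 ratio 1.29). Both groups were held to at most 5 UMIs of the neuronal gene *elavl3*, but the median within that limit was 1 in lateral floor plate cells and 2 in comparison cells.

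The other genes lowest by the naming rule were the heparan sulfate enzyme gene *hs3st3b1b* (log2 ratio -2.70), *gadd45gb.1* (-2.61), the receptor gene *ror1* (-2.28), the tubulin gene *tuba8l3* (-2.23) and *fstl1a*, a secreted follistatin-like protein (-2.19). Of 8 motor neuron genes tested, none was above a ratio of 0 and 5 were at least 2-fold lower, with a median of -1.26. These were low in both groups: *lhx4*, the one with most UMIs, stood at 0.212 against 0.471. *mdka*, a midkine gene chosen after its values were seen, stood at 9.98 against 34.8 (log2 ratio -1.80).

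In the Notch pathway, which holds progenitors back from differentiation, 3 of 28 genes tested were at least 2-fold lower and 1 higher, with a median log2 ratio of -0.25. The ligand genes *dld* and *dlb* gave -1.99 and -1.53 and the fringe gene *lfng* -1.18, and the target *heyl* gave 1.85 on a low level of 0.0787 against 0.0218. The target *her6* stood at 12.1 against 8.32 (log2 ratio 0.54), and 22 of the 28 lay below 0. Among 31 other signalling genes, 5 were at least 2-fold higher and 1 lower, with a median of 0.22. Besides *pth1a* these were *wnt4b*, a Wnt ligand of the floor plate, at 0.365 against 0.0262 (log2 ratio 3.80), the BMP antagonist *nog3* (1.54), *sfrp2* (1.27) and *pth2rb* (1.71), and the lower one was *etv4* (-1.27).

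The cilium list holds genes of motile cilia and general cilium genes such as *ift88* and *arl13b*. Of its 26 genes tested, 25 had a ratio above 0, 5 of them at least 2-fold and none at least 2-fold lower, with a median log2 ratio of 0.84 beside the 0.05 of all genes. *foxj1a* (ENSDARG00000101919), the master factor of motile cilia, stood at 5.39 (5.16 to 5.63) against 3.45 (3.28 to 3.62), a log2 ratio of 0.64 (0.55 to 0.74), short of 2-fold. The 5 past 2-fold were *tppp3* (log2 ratio 2.26), *tekt1* (2.17), *spata18* (1.53), *efhc2* (1.40) and *dnali1* (1.07). When the cells with *phox2bb* or *hox13* UMIs described below were left out, 14 were at least 2-fold higher, and without cells holding *mki67* or *top2a* UMIs 13 of 25 were. Both counts rest on choices of cells made by measured genes. The shares of all genes called in those cell sets are not given here, so these counts cannot be read as a rise from 5.

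**Figure D2:**
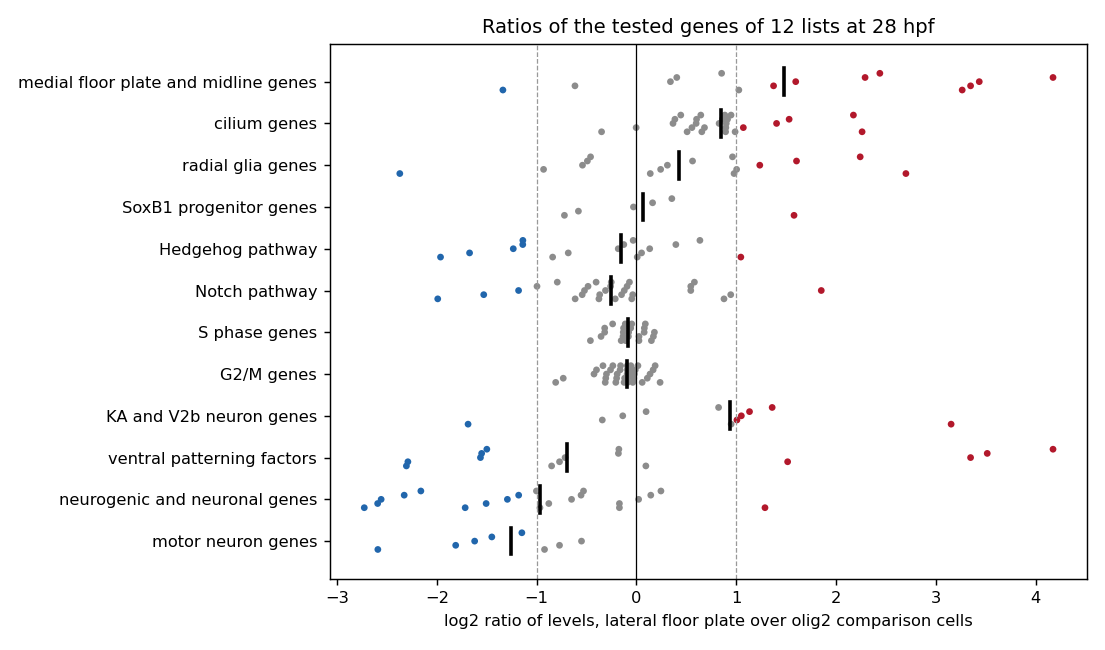
Log2 ratio of levels, lateral floor plate cells over *olig2* comparison cells at 28 hpf, for the tested genes of each list. Each dot is 1 gene, red where it was at least 2-fold higher, blue where at least 2-fold lower and grey otherwise, the black bar is the median of the list (with the pseudocount) and the vertical lines mark 2-fold; the midline list has 8 of 14 higher and the cilium list 25 of 26 above 0.

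In the cell cycle lists no gene was past 2-fold. Of 23 S phase genes and 36 G2/M genes, 0 were at least 2-fold higher and 0 lower, and the medians were -0.08 and -0.09. A UMI of *mki67* or *top2a*, which dividing cells transcribe, was present in 279 of 495 lateral floor plate cells (56.4%, 51.9 to 60.8) and in 362 of 690 comparison cells (52.5%, 48.7 to 56.3). Thinned to 2000 UMIs, these shares were 37.7% (33.4 to 42.1) and 36.9% (33.3 to 40.6). In hemoglobin-rich cells the thinned share was 26.7% (84.4% unthinned), so those cells gave no low background for this measure. In the 40 thinned muscle cells defined above it was 0% (interval up to 8.81%). Lateral floor plate cells with a *mki67* or *top2a* UMI had levels of 11.3 for *slc1a3a* and 46.4 for *pth1a*, and those without it 12.5 and 47.7. Depth differed between these cells, with medians of 8030 and 5872 UMIs.

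Markers of other cell types were present in both groups, and those of mesenchyme, notochord and skin stood higher in lateral floor plate cells. The summed level of the 9 mesenchyme markers was 3.69 against 1.65 in comparison cells, nearly all of it *col5a1* at 3.38 against 1.28, and 216 of 495 cells (43.6%) against 93 of 690 (13.5%) had 3 or more UMIs of that list. The 6 notochord markers summed to 0.724 against 0.105, with 3 or more UMIs in 32 cells against 1, and their defining gene *tbxta* had 1 UMI in lateral floor plate cells against 0. Of the 48 notochord UMIs in comparison cells, 28 lay in 1 cell. The skin list summed to 0.708 against 0.377, endothelium to 0.268 against 0.196, immune to 0.0682 against 0.0305 and neural crest to 0.341 against 0.281. Muscle stood at 0.690 against 1.37, but 1 comparison cell held 375 of that group's 630 UMIs, and without the highest cell of each group the levels were 0.673 and 0.556. Of the oligodendrocyte list, 1 of 4 tested genes was lower and none higher, and *sox10* was found in 5 cells against 12. Of the dissociation response list, 1 of 22 genes was past 2-fold, *socs3a* at 0.553 against 0.159 (log2 ratio 1.80), and 19 of the 22 lay above 0, with a median of 0.24. When cells with 3 or more UMIs of the non-neural lists were left out of both groups, 195 lateral floor plate cells remained and 9 of 12 midline genes were at least 2-fold higher. The share of all genes called in this smaller set is not given here, so the count is not comparable with that of the main comparison. The part of these other cell types in the remaining results was not tested.

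The UMIs of a few genes lay in few cells. *urp1* (ENSDARG00000093493), a urotensin-related peptide of KA neurons, had 636 UMIs in 47 cells, and 10 cells held 93.4% of them. *si:ch1073-70f20.1* had 994 UMIs, 94.2% in its 10 richest cells, and the GABA transporter gene *slc6a1b* had 188, 86.7%. By contrast, the 10 richest cells held 9.46% of the UMIs of *slc1a3a*, 8.15% of *pth1a*, 10.2% of *ntn1b* and 15.7% of *fabp7a*. For *timp2b* the share was 36.0% and for *phox2bb* 65.5%.

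**Figure D3:**
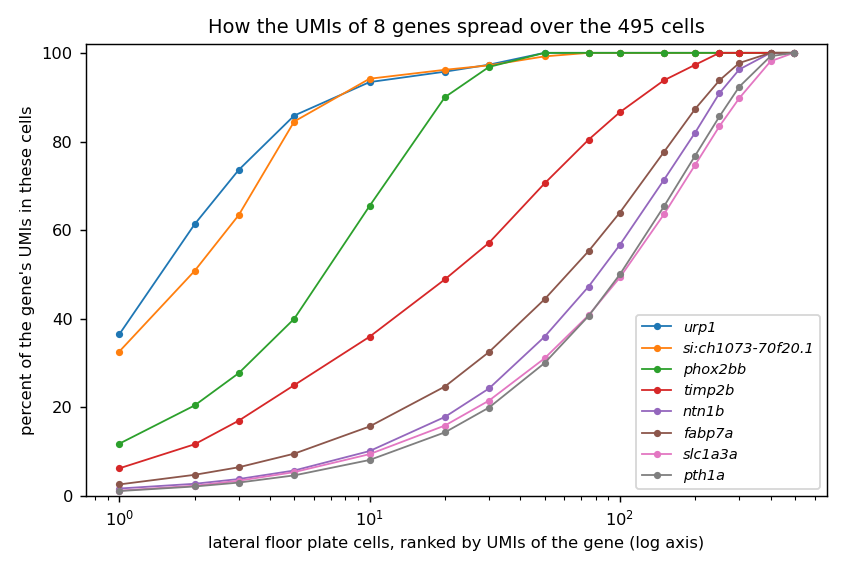
Cumulative percent of a gene's UMIs (vertical axis) over lateral floor plate cells ordered from the richest to the poorest (horizontal axis, log scale), 1 line per gene. The 10 richest cells hold 93.4% of the UMIs of *urp1*, whose line is already near its top there, and 9.46% of those of *slc1a3a*.

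In 11 lateral floor plate cells, the 15 genes of the KA and V2b neuron list added up to 10 or more UMIs. This limit was set after the values were seen, and *urp1* and *gata3* are on the list, so that their levels inside and outside these cells follow from the choice. Of the *urp1* UMIs, 92.8% lay in these 11 cells, where its level was 74.8 (68.9 to 81.1) against 0.123 (0.0902 to 0.164) in the other 484. The transcription factor gene *gata3* stood at 3.68 against 0.0295, *slc6a1b* at 20.6 against 0.0696, *foxa2* at 4.44 against 0.348 and *sox2* at 0.254 against 2.22. *elavl3*, still within the limit of the rule, stood at 5.201 against 1.75, and *slc1a3a* at 10.7 against 11.7. With all cells, 5 of 11 tested genes of this list were at least 2-fold higher in lateral floor plate cells than in comparison cells and 1 lower, with a median log2 ratio of 0.94. Without cells of 10 or more such UMIs in either group, none of 11 was past 2-fold in either direction and the median was -0.45, while the log2 ratio of *si:ch1073-70f20.1* was 0.10 and that of *urp1* -0.46, in place of 3.75 and 3.15. These cells were left out for their UMIs of this list, so the lower count and median of the list follow from the choice. Of the V3 interneuron list 2 genes could be tested and none was past 2-fold, and *sim1a*, its defining factor, had UMIs in 4 cells.

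Lateral floor plate cells differed among themselves along *olig2*. They fell into 187 cells with no *olig2* UMI, 169 with 1 to 4 and 139 with 5 or more, a split on a gene of the study's own sort, so what follows is a description. *slc1a3a* had a level of 14.4 (13.8 to 15.08) in cells at 0, 13.6 (12.9 to 14.2) at 1 to 4 and 7.27 (6.81 to 7.75) at 5 or more. In the same order, *fabp7a* had levels of 11.7, 8.94 and 4.78, *ntn1b* 3.37, 2.54 and 1.45, and *pth1a* 54.1, 49.1 and 37.5. *sparc*, a matrix protein gene chosen after its values were seen, had 7.53, 6.51 and 3.78. All of these stayed above the comparison cells, which stood at 3.86, 1.79, 0.227, 15.0 and 0.863.

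Some of the genes that stood lower in lateral floor plate cells had higher levels at 5 or more *olig2* UMIs than at 0. *mdka* had levels of 2.66, 6.34 and 20.8 across the 3 sets, *pax6a* 0.0776, 0.210 and 0.729, and *neurog1* 0.171, 0.0728 and 1.22, against 34.8, 1.69 and 3.27 in comparison cells. *gfap* stood at 2.81, 3.28 and 5.42, near the 5.60 of comparison cells. *foxj1a* was close to flat, at 5.39, 5.74 and 5.06, and *nkx2.2b* stood at 5.24, 5.33 and 3.34. Median depth was 6401, 6666 and 8179 UMIs, so that cells with more *olig2* were also deeper.

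**Figure D4:**
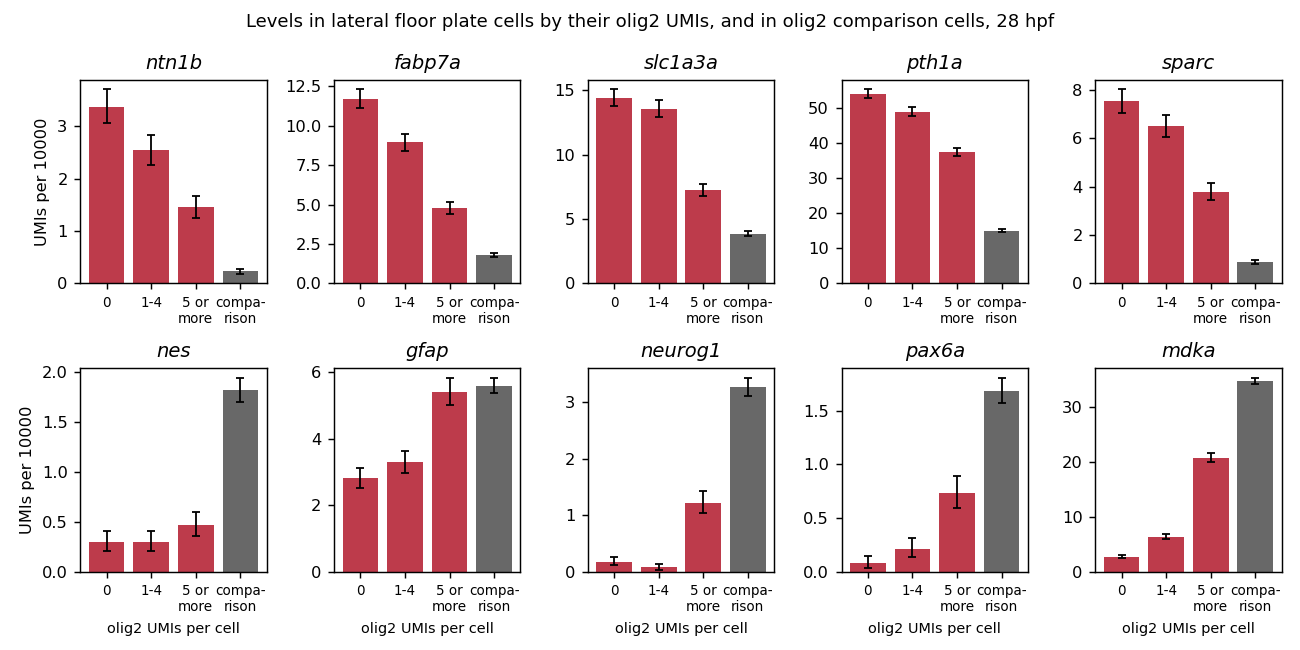
Levels of 10 genes in UMIs per 10000, as bars on linear axes that start at 0, in lateral floor plate cells with 0 (187 cells), 1 to 4 (169) and 5 or more (139) *olig2* UMIs, and in *olig2* comparison cells (690), with exact Poisson 95% intervals. Bars of *slc1a3a*, *fabp7a* and *ntn1b* are lower at 5 or more *olig2* UMIs and *mdka*, *pax6a* and *neurog1* higher.

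Cells with a *nkx2.9* UMI (350) and without (145) had *slc1a3a* levels of 11.8 and 11.6, and *nkx2.2a* levels of 1.003 and 0.454, while *urp1*, carried by few cells as above, stood at 0.132 and 5.56.

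Position along the body axis was read from the *hox* genes, whose paralog groups run from the hindbrain (group 1) to the tail (group 13). Over all lateral floor plate cells, the summed levels were close to those of comparison cells, 7.31 against 7.13 for group 9 and 1.26 against 1.11 for group 13. Group 5 stood at 1.11 against 1.56 and group 7 at 1.86 against 1.44. The 37 cells with a *phox2bb* UMI, a set chosen after the values were seen, had 4.35 (3.65 to 5.14) for group 1 against 0.923 in the other 458, and 1.78 (1.34 to 2.31) for group 9 against 7.81. Group 2 stood at 0.794 (0.514 to 1.17) against 1.24 and group 5 at 2.80 against 0.955, so the levels did not run in 1 strict order along the groups. Groups 6 to 12 all stood lower, such as group 7 at 0.381 against 1.995 and group 12 at 0.699 against 1.84. Group 13 stood at 1.21 against 1.26, but from 38 UMIs in 6 of the 37 cells. In these 37 cells the *slc1a3a* level was 4.76 against 12.4, *pth1a* 15.4 against 49.7 and *foxj1a* 2.32 against 5.67.

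At the other end, 47 cells had 3 or more UMIs of *hox13* genes, of which 30 also had 5 or more *olig2* UMIs. In these, *fabp7a* stood at 1.09 against 9.32 in the other 448 cells, *slc1a3a* at 4.79 against 12.5 and *ntn1b* at 1.09 against 2.61, and *apela*, a peptide hormone gene chosen after its values were seen, at 1.75 against 0.184. Among the cells with under 3 *hox13* UMIs, *slc1a3a* stood at 8.06 in 109 cells with 5 or more *olig2* UMIs, against 14.6 in 181 with none, and *mdka* at 20.8 against 2.66. These sets were chosen by measured genes. The part of position along the body axis in the differences along *olig2* was not tested.

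**Figure D5:**
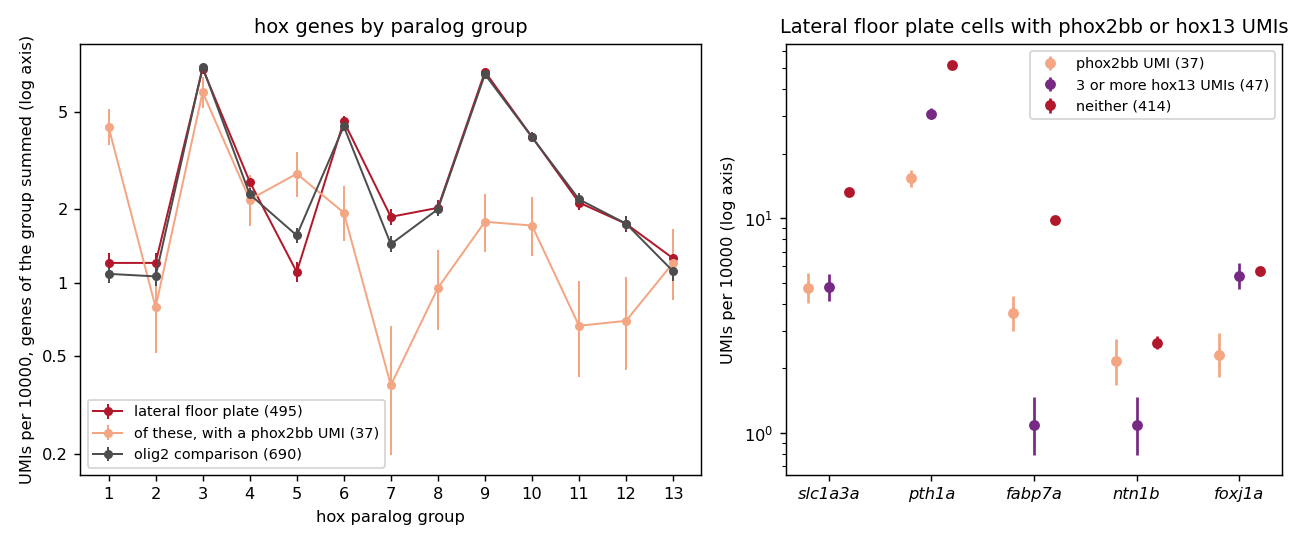
Left, summed levels of *hox* genes by paralog group (UMIs per 10000, log axis) in the 495 lateral floor plate cells, in the 37 of them with a *phox2bb* UMI and in the 690 comparison cells. Right, levels of 5 genes (log axis) in lateral floor plate cells with a *phox2bb* UMI (37), with 3 or more *hox13* UMIs (47) and with neither (414), with exact Poisson 95% intervals; *fabp7a* stands at 3.62, 1.09 and 9.82.

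Set against *shha*/*shhb* cells, 520 of 10337 genes tested (5.03%) were at least 2-fold higher in lateral floor plate cells and 797 (7.71%) at least 2-fold lower. All 14 midline genes tested lay below 0, 10 of them at least 2-fold, with a median log2 ratio of -1.84. *col2a1a*, the type II collagen gene, stood at 2.14 against 38.3 (log2 ratio -4.16), *ccn2a*, a matricellular gene, at 0.367 against 23.5 (-6.00), *ntn1b* at 2.45 against 7.81 (-1.67) and *wnt4b* at 0.365 against 2.01 (-2.47). *foxa2*, at 0.433 against 0.564 (-0.38, -0.77 to 0.02), and *fabp7a*, at 8.47 against 8.70 (-0.04, -0.13 to 0.05), had intervals that include 0. Of 26 cilium genes tested, 0 were at least 2-fold higher and 1 was lower. Of the same 26, 14 lay above 0, with a median of 0.11, so their higher levels over comparison cells were shared with *shha*/*shhb* cells. On the higher side were 15 of 35 G2/M genes, with all 35 above 0 and a median of 0.93, and the Hedgehog response genes *gli1* (1.51) and *hhip* (1.41). The leading genes by the naming rule were *si:ch1073-70f20.1* and *urp1*, which rest on the 11 cells above, then *olig3* (log2 ratio 2.13), *neurog1* (2.11), *nppc* (1.87), *egr4* (1.82), *foxd5* (1.75), *insm1a* (1.72), *AL929216.1* (1.66) and *dll4* (1.65). The same 11 cells held 56.6% of the lateral floor plate UMIs of *nppc*, 20.3% of *insm1a* and 19.3% of *egr4*. They held 4.65% of *AL929216.1*, 4.66% of *dll4* and 0% of *olig3*, *neurog1* and *foxd5*.

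Set against the 586 cells that met the *nkx2.2b* and *nkx2.9* limit but had 6 or more *elavl3* UMIs, 689 of 14197 genes (4.85%) were at least 2-fold higher in lateral floor plate cells and 2183 (15.4%) at least 2-fold lower. Those cells had a median of 14682 UMIs against 6839, and of them 63 had more than 2 UMIs of *shha* and *shhb*. All 12 tested KA and V2b genes, all 9 motor neuron genes and 13 of 21 neurogenic genes were at least 2-fold lower in lateral floor plate cells. On the other side, 23 of 36 G2/M genes were at least 2-fold higher, with a median log2 ratio of 1.04, and 7 of 26 cilium genes, of which 24 lay above 0 with a median of 0.74. Of the dissociation response list 20 of 22 lay above 0, with a median of 0.72. *aurkb*, a mitotic kinase gene, stood at 1.03 against 0.407 (log2 ratio 1.34). The other leading genes were *irx1b* (1.53), *asap3* (1.45), *socs3a* (1.38), *fam83d* (1.38), *erich2* (1.35), *dennd2da* (1.33), *egr2a* (1.32), *vwa7* (1.302) and *BX663503.3* (1.298).

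The following values stand just inside and just outside the limits of the rule. Among otherwise eligible cells, *slc1a3a* stood at 8.35 with 1 UMI of *nkx2.2b* and *nkx2.9*, 9.45 with 2, 10.5 with 3 and 12.2 with 4, and *pth1a* at 37.7, 40.8, 41.9 and 47.6. Cells with 1 and 2 such UMIs were left out of both groups, and by these 2 genes they lay nearer the lateral floor plate cells than the comparison cells. They had no limit on *olig2*, unlike the comparison cells, and the part of this in their levels was not tested. Across the *shha* limit, *slc1a3a* stood at 16.4 in 31 cells with 2 UMIs and 16.9 in 27 with 3, and *pth1a* at 60.9 and 76.8. Across the *elavl3* limit *slc1a3a* stood at 9.96 in 27 cells with 5 UMIs and 8.58 in 29 with 6.

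At 60 hpf the same rule kept 33 of 4967 cells (0.664%, 0.458 to 0.932), against 495 of 7664 (6.46%, 5.92 to 7.03) at 28 hpf. Stage and library cannot be told apart in these shares, nor can a smaller domain and a smaller part of it in the sort. The 33 cells were set beside the 294 cells that met the comparison rule at 60 hpf, of which 145 held a UMI of *sox10*, a marker of the oligodendrocyte lineage, against 5 of the 33. *pth1a* stood at 78.8 against 11.01 (log2 ratio 2.84, 2.76 to 2.92), *slc1a3a* at 3.33 against 0.539 (2.63, 2.22 to 3.03) and *ntn1b* at 6.53 against 0.204 (4.501 to 5.53 on the log2 scale). *timp2b* stood at 76.0 against 1.29 (5.88) and *fabp7a* at 76.1 against 27.0 (1.495). *gfap* stood at 57.3 against 14.5 (log2 ratio 1.99), on the other side of 0 from its -0.54 at 28 hpf. *urp1* had 575 UMIs in 2 of the 33 cells.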

How the data were processed

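Libraries of *olig2*:dsred cells from 28 and 60 hpf were used, and 42 hpf was not analysed here. Values are raw UMI counts, not normalized, as deposited by the authors, and come from Cell Ranger 5.0.0 per the file headers. The genome build GRCz11 and the tool Scanpy are named in the submitters' processing notes. The 27771 identifiers were summed to 27062 symbols, of which 550 had several.

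The members and the gene lists were chosen with earlier results of these data known. Levels were sums of counts over cells per 10000 UMIs. A gene was tested for size where it had at least 20 UMIs over both groups and at least 5 expected in the smaller, and was called at 2-fold with a pseudocount of 1 UMI; printed ratios have no pseudocount. Named genes were those of the rule, *slc1a3a*, *pth1a*, members of 23 lists, the 10 with the highest and the 10 with the lowest ratio among genes with at least 200 UMIs, and the 10 highest over each of the other cell sets. Any other gene is said to be chosen after its values were seen. Of the listed symbols 6 were not found. Hemoglobin-rich cells had at least 50% hemoglobin UMIs. No doublets were removed. In an alternative, the 563 of 8390 cells (6.71%) with the highest Scrublet scores were left out, a number set by an assumed 0.8% per 1000 cells, 4 of them lateral floor plate and 8 comparison cells. Shares were also taken after thinning each cell to 2000 UMIs (seed 7). The scripts were tested on simulated data. Alternatives were other limits of the rule, other filters and folds, and leaving out cells by marker or cycling genes. Promoter sequences were not used here. Python 3.11.15, numpy 2.4.6, scipy 1.17.1, pandas 2.3.3, scanpy 1.11.5, scikit-learn 1.9.0 and matplotlib 3.10.9 were used.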

Additional observations from a re-analysis of the deposited data

Results flagged for a closer look

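2 genes that were past 2-fold in both stages stood on opposite sides at 28 and 60 hpf. *fstl1a* had a log2 ratio of 2.55 for lateral floor plate over comparison cells at 60 hpf and of -2.19 at 28 hpf. At 60 hpf its level was 1.93 against 0.330, from 61 UMIs in 4 of the 33 lateral floor plate cells, 32 of them in 1 cell. *nkx2.2a* had a log2 ratio of -1.27 at 60 hpf, at 1.36 against 3.28, and of 3.52 at 28 hpf. The difference between the stages was not tested. Of the comparison cells at 60 hpf, 145 of 294 held a *sox10* UMI, against 5 of the 33 lateral floor plate cells, and the part of this in either ratio was not tested.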

How the results depend on the processing

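The rule kept 259 lateral floor plate cells when at least 5 UMIs of *nkx2.2b* and *nkx2.9* were asked for, 216 when cells with a *mki67* or *top2a* UMI were left out and 195 when cells with markers of other types were. At least 1.5-fold, 1785 genes were higher and 1095 lower, against 692 and 400 at 2-fold. With at least 100 UMIs asked for, the counts were 263 and 123, and with no expected minimum and at least 1 UMI, 3009 and 1703. Of the 692 higher and 400 lower genes, 414 and 175 were called again with the rule applied to cells thinned to 4000 UMIs, and 2 were called the other way. Without *mki67* or *top2a* cells 348 and 170 were called again, and without cells with markers of other types 339 and 176. A gene with too few UMIs left to be tested counts as not called. When the rule was applied to cells thinned to 4000 UMIs, the log2 ratio was -0.44 for *nppc* and -0.091 for *shhb*, in place of 1.62 and 1.27, the last from 4 UMIs against 2. Without the cells rich in KA and V2b genes that of *urp1* was -0.46 in place of 3.15. The cause was not tested. Of 612 ratios of 44 named genes over 14 settings, 490 stayed inside the counting interval of the main ratio and 119 moved outside it. The other 3 are those above, which lay past 2-fold and changed sign. Sign changes of ratios under 2-fold were not counted apart. Of 472 ratios of named genes past 2-fold, 463 stayed past it in the same direction. Many of these genes were named for their high or low ratios in this same comparison, and genes of the rule are among them. The choice of genes therefore goes far to set this count. Leaving out cells rich in KA and V2b genes, or with *phox2bb* or *hox13* UMIs, was chosen after seeing the data. No paired analysis was possible because each stage had 1 library. With 1 library per stage, differences between embryos, sorts and captures are unknown, and low genes are limited by counting error.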

Other observations

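Within the lateral floor plate cells, the 47 cells with 3 or more *hox13* UMIs differed in other genes as well, all named after their values were seen. *hoxc12b*, a posterior *hox* gene, stood at 3.01 against 0.146 in the other cells and the POU factor gene *pou2f2a* at 4.56 against 0.825, while *cyp27c1*, an enzyme of vitamin A metabolism, stood at 0.203 against 2.25. Cells with a *nkx2.9* UMI had levels of 2.53 for the stress gene *hsp70l* and 2.53 for the early response gene *egr1*, against 0.917 and 1.04 in cells without one.

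At 60 hpf 3 further genes, picked after their values were seen, had higher levels in the 33 cells. *spon1b* stood at 2.95 against 0.0418 in comparison cells (log2 ratio 6.14), *sparc* at 9.25 against 0.575 (4.01) and *wnt4b* at 4.44 against 0.167 (4.73).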
